A study of Mus musculus with 4 samples.

Results

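The cytosolic ribosomal protein genes encode the proteins of the ribosome that translates most cellular messages, and 82 of the 45232 gene rows in the count files were taken as members. They are the protein-coding genes with a mouse symbol of the Rpl or Rps series, together with Rplp0, Rplp1, Rplp2, Rpsa and Fau, that had at least 10 counts over the 4 libraries. Kinases of the Rps6k family and pseudogenes were left out. The large subunit had 49 members and the small subunit 33. Of the 2 further protein-coding genes with such a symbol, Rpl39l had 3 counts in all and Rpl10l had 0, so both fell under the minimum, and Rpl3l, with 40 counts, lay just above it. All 82 members passed the filter on low counts of the test.

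LSK cells lack lineage markers and carry Kit and Sca-1, a gate in which the mouse keeps its blood stem cells and first progenitors. GFP-positive LSK cells were sorted from recipient mice 3 months after they received GFP-positive long-term haematopoietic stem cells, and their total RNA was sequenced. The donor cells had a miR-99 knockdown (miR-99 KD, below KD) or the Scr control, and each group has 2 libraries. Each library was taken to come from its own recipient. Transplantation and GFP were common to both groups, and the construct, strain, sex and age were not stated in the labels. The comparison asks how ribosomal protein messages of engrafted LSK cells differ with the knockdown.

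A cytosolic ribosome has a small subunit, which reads the message, and a large subunit, which joins amino acids and lets the new chain leave through an exit tunnel. Each ribosomal protein is needed in about equal number, and their messages share a pyrimidine-rich start, the 5′ terminal oligopyrimidine tract, through which mTOR signalling and the RNA-binding protein LARP1 set their translation. Blood stem cells are known for a low and tightly held rate of protein synthesis. Loss of a single copy of several of these genes causes Diamond-Blackfan anaemia, in which red cell formation fails.

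The microRNAs of the miR-99 family are shown first because the knockdown is directed at miR-99. Sequences are from RefSeq (build GRCm38.p6), and capitals mark the seed, bases 2 to 8 from the 5′ end, which is the same in each.
mmu-miR-99a-5p (chr16:77598940-77598961, plus strand): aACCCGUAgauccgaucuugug
mmu-miR-99b-5p (chr17:17830194-17830215, plus strand): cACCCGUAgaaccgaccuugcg
mmu-miR-100-5p (chr9:41531437-41531458, plus strand): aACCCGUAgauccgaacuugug
The complement of this seed, TACGGGT, was searched on the sense strand of 1 principal transcript per gene from GENCODE M21. It stood in 1 of the 82 members, or 1.22%, and in 460 of 14502 other protein-coding genes, or 3.17%. Per 100 kilobases of transcript there were 1.31 sites in members and 0.976 in the others. The member was Rpl31, a protein beside the exit tunnel, named after the search, and 1 of its 6 annotated transcripts held the site. Rpl31 stood at 11.1 CPM in Scr 1, 11.2 in Scr 2, 12.7 in KD 1 and 16.6 in KD 2, where CPM is the gene's count scaled to the library's size after TMM normalization. A match of letters is a description and not evidence of binding.

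The start sites of 5 members whose annotated start opens with a C and at least 4 more pyrimidines show the tract that these messages share. Capitals mark the unbroken run of C and T from the annotated start, and 15 bases stand on each side of the start. Rpl7l1, a member without such a start, follows for comparison. Sequences are from RefSeq (build GRCm38.p6).
Rps10 (chr17:27635230-27635259, minus strand): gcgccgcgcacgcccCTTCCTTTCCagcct
Rplp2 (chr7:141447636-141447665, plus strand): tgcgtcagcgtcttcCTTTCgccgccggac
Rpl28 (chr7:4792950-4792979, plus strand): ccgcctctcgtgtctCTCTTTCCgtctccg
Fau (chr19:6057932-6057961, plus strand): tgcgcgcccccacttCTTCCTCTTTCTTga
Rpl35a (chr16:33056467-33056496, plus strand): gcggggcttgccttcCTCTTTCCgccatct
Rpl7l1 (chr17:46782642-46782671, minus strand): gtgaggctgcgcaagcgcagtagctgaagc
The promoter table held 62 of the 82 members. Such a start was annotated in 14 of these 62, or 22.6%, and in 3.01% of all 27025 genes of the table. The sequence CCGGAAG, the core of sites for ETS factors such as GABPA, stood on either strand in 40.3% of the matched members and in 9.93% of all genes, within the same 300 bases around the start. The sequence AAGATGGC, which YY1 binds, stood in 11.3% and 3.19%. These 3 features overlap between members and were not counted apart. The median log2 difference between KD and Scr was 0.34 in members with such an annotated start and 0.37 in the other matched members. It was 0.39 with CCGGAAG and 0.33 without, and 0.31 with AAGATGGC and 0.37 without. A member whose tract begins some bases from the annotated start was counted as without such a start. The first of these contrasts thus follows the annotation and does not show which messages have the tract.

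Gene counts per library ran from 27295197 to 32350590. Over all genes tested, 26% were lower in KD without overlap of the groups and 24.5% were higher. Of the LSK markers, 8 of 8 were detected in every library, and 7 of them, Kit and Ly6a (Sca-1) among them, were lower in KD without overlap. Their summed level was 2320 and 2827 CPM in Scr and 1235 and 1245 in KD. All 10 erythroid markers were higher in KD without overlap, at a summed 8496 and 8777 CPM in Scr against 12525 and 15634. The 10 neutrophil markers all overlapped between the groups. They summed to 8270 and 6230 CPM in Scr, and to 28964 in KD 1 and 5292 in KD 2. The 9 markers of B cell precursors summed to 72.4 and 37.6 CPM in Scr and to 266 and 81.9 in KD. Of these 9, 6 were higher in KD without overlap. Of the lineage markers removed by the sort, Cd3e and Cd8a had 0 counts in Scr 2 and KD 2, and Itgam, a myeloid integrin, stood at 127 CPM in KD 1 and at 15.9 to 46.2 in the others. The part of these marker lists in the results on ribosomal protein genes was not tested. Fewer cells of a type and less RNA per cell cannot be told apart in these bulk libraries.

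Ribosomal protein messages stood higher in KD than in Scr on average, but their level followed single libraries more than the groups. The members' log2 difference (KD minus Scr, from the edgeR fit) was above 0 in 80 of 82, against 7879 of 15320 genes tested, or 51.4%. Its median was 0.36, a 1.28-fold difference, beside 0.02 over all genes tested. No member passed at a Benjamini-Hochberg adjusted p of 0.05 in the quasi-likelihood fit of edgeR, where 0 of 15320 genes, or 0%, passed. The lowest edgeR adjusted p among members was 0.327, for Rps10. At an unadjusted p under 0.05, edgeR counted 0 members higher and 0 lower, while 5.97% of all genes were counted higher and 9.63% lower. DESeq2 also called 0 members at an adjusted p of 0.05, where it called 7.09% of the 12646 genes to which it gave an adjusted p.

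The level of the members differed between libraries of the same group. Of all gene counts, members made up 1.002% in Scr 1, 0.779% in Scr 2, 0.920% in KD 1 and 1.24% in KD 2. Scr 1 and KD 1 thus lay close together, with Scr 2 below and KD 2 above them. Of the 82 members, 75 were lowest in Scr 2 and 78 were highest in KD 2, where 25.8% and 32.5% of all genes had their lowest and highest value. The order KD 2, Scr 1, KD 1, Scr 2 held for 52 members, and 22 members had the order KD 2, KD 1, Scr 1, Scr 2. The median member was 0.41 higher in Scr 1 than in Scr 2 on the log2 scale and 0.43 higher in KD 2 than in KD 1. Both differences within a group were larger than the 0.36 between the groups. That value is fitted over 2 libraries in each group, so it is not a like measure to a difference of single libraries. Between KD 1 and Scr 1 the median member differed by -0.08, and 26 of 82 members were higher in KD 1. Between KD 2 and Scr 2 it differed by 0.75, with 80 members higher in KD 2. In the remaining pairings of single libraries it differed by 0.33 between KD 1 and Scr 2, and by 0.36 between KD 2 and Scr 1.

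**Figure D1:**
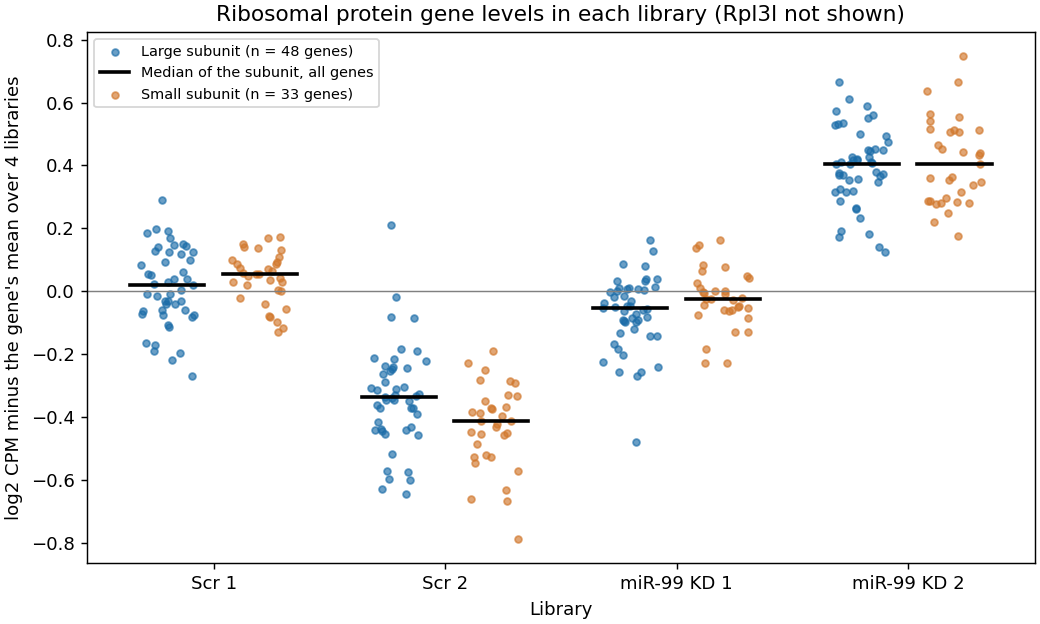
Level of each ribosomal protein gene in each library, as log2 CPM minus the gene's own mean over the 4 libraries; each point is a gene, blue for the large and orange for the small subunit, and black bars are subunit medians over all their genes. The medians lie at 0.02 and 0.05 in Scr 1, -0.34 and -0.41 in Scr 2, -0.05 and -0.02 in KD 1 and 0.41 and 0.41 in KD 2.

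Both KD libraries exceeded both Scr libraries in 24 members, or 29.3%, both lay below them in 1, and 57 overlapped. Among all genes tested the share above was 24.5% and the share below 26%, so the members' share above lay near that of all genes. The median log2 difference depended on single libraries. It was 0.13 without Scr 2 and 0.13 without KD 2, and it was 0.53 without Scr 1 and 0.54 without KD 1. Without KD 1, edgeR called 4 members higher, which were Rpsa, Rpl10a, Rpl3 and Rplp0, and counted 40 higher at an unadjusted p under 0.05, where it counted 10.97% of all genes higher and called 1013 of 16483. Library scaling by totals alone left 12 members above, or 14.6%, against 18.0% of all genes, and lowered the median of all genes to -0.07. The members' share above was thus over that of all genes with one scaling and under it with the other. With a trend on transcript length taken out of each library, the median of all genes was 0.12, and the members' median lay 0.21 above it in place of 0.34.

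Genes of the mitochondrial genome were also low in Scr 2. They made up 0.357% of gene counts in Scr 2 and 0.729% to 0.9995% in the other libraries, and the median of the 10 tested, as log2 CPM minus each gene's mean, was -1.05 in Scr 2 against 0.12 to 0.49 in the others. The part of this in the members' low level in Scr 2 was not tested. Reads with several alignments, which the counting sets aside, were 18.0% of reads in Scr 2 and 21.02% to 21.85% in the others.

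**Figure D2:**
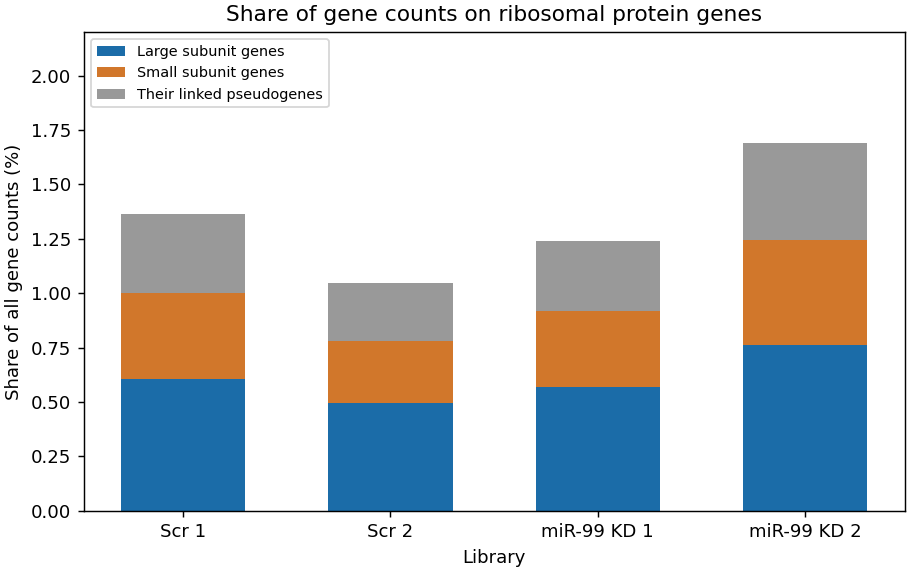
Share of all gene counts, in percent, that fell on large subunit genes, small subunit genes and their linked pseudogenes, stacked for each library. Together they reach 1.37% in Scr 1, 1.05% in Scr 2, 1.24% in KD 1 and 1.69% in KD 2.

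Large and small subunit genes differed little from each other. The median log2 difference was 0.34 over the 49 large subunit genes and 0.39 over the 33 small subunit genes, which are 1.26-fold and 1.31-fold. Between libraries of a group the subunit medians spread by 0.29 (SD) for the large and 0.32 for the small subunit. The large subunit median minus the small one was -0.05, within the 0.058 (SD) by which that gap spread between libraries of a group. All 33 small subunit genes and 47 of 49 large subunit genes had a log2 difference above 0. Both KD libraries exceeded both Scr libraries in 14 large subunit genes (28.6%) and 10 small subunit genes (30.3%), beside 24.5% of all genes tested. Summed over its members, the large subunit stood at 5875 CPM in Scr 1, 4822 in Scr 2, 5864 in KD 1 and 7841 in KD 2. The small subunit stood at 3810, 2781, 3654 and 4959 CPM in these libraries, with Scr 2 lowest and KD 2 highest in both subunits. The gap between the medians changed to -0.12 without Scr 1 and 0.0099 without KD 1, so its sign depended on the library left out.

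**Figure D3:**
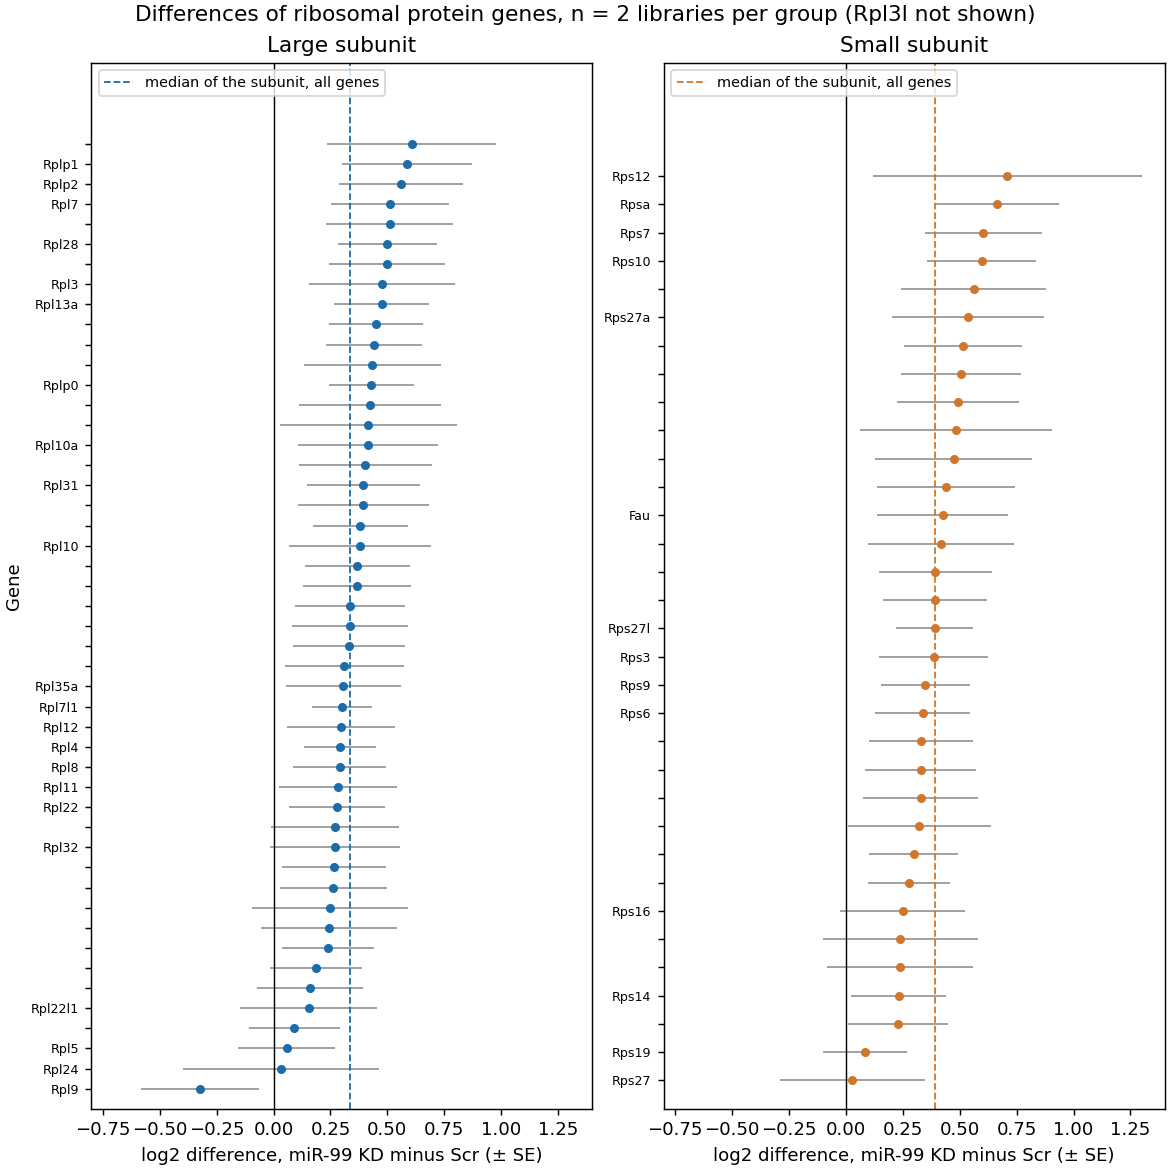
The log2 difference between KD and Scr for each gene with its standard error from the edgeR fit, large subunit on the left and small subunit on the right; dashed lines are the subunit medians over all their genes, 0.34 and 0.39. Names are given for genes the text describes, and apart from Rpl9 each gene drawn lies to the right of 0.

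Relative to the median member of the same library, most members kept their place. In 54 of 82 members the deviation from that median stayed within 0.2 on the log2 scale in every library. The log2 differences of the members had an SD of 0.19, against 0.82 over all genes tested. Related sets were as narrow, so this is not particular to the members. The SD was 0.17 over 77 mitochondrial ribosomal protein genes, 0.16 over 10 translation elongation and release factors and 0.21 over 36 initiation factors. Their standard errors ran from 0.13 for Rpl7l1 to 0.59 for Rps12, leaving aside Rpl3l, and the members with few counts had the wide ones. Counts over the 4 libraries ran from 40 to 152398 per member with a median of 5789, and 11 members had fewer than 1000.

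The most abundant messages per kilobase of principal transcript were Rpl4, Rplp0 and Rpl32 in the large subunit, and Rps9 led the small subunit. Their mean levels over the 4 libraries were 863, 671, 570 and 597 CPM per kilobase in that order. Rpl4 (ENSMUSG00000032399), which lines the exit tunnel, alone held 13.4% of all member counts, at 1254 CPM in Scr 1, 1134 in Scr 2, 1315 in KD 1 and 1608 in KD 2. Its 2 groups did not overlap, and its log2 difference was 0.29 ± 0.16 (SE, from 2 libraries in each group) with an edgeR adjusted p of 0.425. Rps9 (ENSMUSG00000006333) stood at 442, 347, 442 and 562 CPM, with Scr 1 and KD 1 nearly equal. Rpl32 (ENSMUSG00000057841) stood at 324, 211, 261 and 384 CPM, and its log2 difference was -0.03 without Scr 2 in place of 0.27. The lowest members per kilobase were Rpl3l and Rps12, at 0.249 and 3.84 CPM per kilobase.

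The members with the smallest edgeR p in the small subunit were Rps10, Rpsa, Rps7 and Rps27l, each higher in KD without overlap of the groups. Rps10 (ENSMUSG00000052146), whose protein sits at the head of the small subunit and is marked with ubiquitin when ribosomes collide, stood at 40.4 CPM in Scr 1, 32.2 in Scr 2, 45.4 in KD 1 and 64.3 in KD 2. The KD 1 value was close to that of Scr 1, exons of 2 other annotated genes cover 63.6% of its principal transcript, and the log2 difference was 0.60 ± 0.24 (SE, from 2 libraries in each group) with an edgeR adjusted p of 0.327. Rpsa (ENSMUSG00000032518), which also serves as a laminin receptor, stood at 108, 76.6, 115 and 177 CPM. Its log2 difference was 0.66 ± 0.28, with an edgeR adjusted p of 0.336 that became 0.0472 without a filter on low counts, a setting in which edgeR called 1064 of 25446 genes. Rps7 (ENSMUSG00000061477), which binds MDM2, stood at 13.7, 10.6, 16.3 and 20.5 CPM. Rps12 had the highest log2 difference of all, 0.71 ± 0.59, on only 63, 29, 45 and 80 counts, and its groups overlapped. No small subunit gene had a log2 difference below 0.

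In the large subunit the smallest edgeR p among higher members were those of Rpl28, Rpl7l1, Rplp0 and Rpl13a. Rpl28 (ENSMUSG00000030432) stood at 15.4 CPM in Scr 1, 13.8 in Scr 2, 19.0 in KD 1 and 22.4 in KD 2, a log2 difference of 0.50 ± 0.22 (SE, from 2 libraries in each group) with an edgeR adjusted p of 0.346. Rpl13a (ENSMUSG00000074129), which can leave the ribosome to silence inflammatory messages, stood at 305, 245, 325 and 440 CPM. Both had groups that did not overlap. The members with a log2 difference below 0 were Rpl9 and Rpl3l.

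The stalk of the large subunit, built from Rplp0, Rplp1 and Rplp2 on a base of Rpl12, recruits the factors that drive elongation. The median log2 difference of its 4 genes was 0.50. In 3 of them KD exceeded Scr without overlap, beside 24.5% of all genes tested. Rplp0 (ENSMUSG00000067274) stood at 832 CPM in Scr 1, 720 in Scr 2, 901 in KD 1 and 1191 in KD 2. Rplp1 (ENSMUSG00000007892) stood at 113, 71.3, 113 and 163 CPM, and Rplp2 (ENSMUSG00000025508) at 70.2, 47.1, 71.5 and 101 CPM. In both, Scr 1 and KD 1 were nearly equal and the separation rests on small margins there. Rpl12 (ENSMUSG00000038900), the remaining stalk gene, stood at 28.3, 26.3, 27.3 and 39.7 CPM and overlapped. The log2 differences of Rplp1 and Rplp2 were 0.59 ± 0.29 and 0.56 ± 0.27 (SE, from 2 libraries in each group), with edgeR adjusted p of 0.383 for each.

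Rpl5 and Rpl11 form a particle with 5S ribosomal RNA that is built into the large subunit and, when free, binds MDM2 and stabilises p53. Rpl5 (ENSMUSG00000058558) stood at 18.1 CPM in Scr 1, 18.3 in Scr 2, 17.1 in KD 1 and 20.9 in KD 2, so the libraries hardly differed. Rpl11 (ENSMUSG00000059291) stood at 15.2, 12.7, 14.4 and 19.5 CPM. Both overlapped between groups, and the log2 difference of Rpl5 was -0.03 with library totals alone in place of 0.06. Around the exit tunnel, the median over 7 genes was 0.40 on the log2 scale, and in 3 the groups did not overlap. The 14 genes of the small subunit head had a median of 0.36, with 2 not overlapping. Over all genes tested, the share with KD above Scr without overlap was 24.5%.

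Of the 18 Diamond-Blackfan anaemia genes listed, 18 had a log2 difference above 0, as had 80 of all 82 members, with a median of 0.32. KD exceeded Scr in every pairing of libraries in 5 of the 18, near the 24.5% of all genes. Rps19 (ENSMUSG00000040952), the gene most often mutated in this anaemia, stood at 155 CPM in Scr 1, 120 in Scr 2, 133 in KD 1 and 159 in KD 2. It was among the members that differed least, with a log2 difference of 0.08 ± 0.18 (SE, from 2 libraries in each group). That value was -0.0037 with library totals alone. Rps14 (ENSMUSG00000024608), lost in the 5q- syndrome of the bone marrow, stood at 216, 161, 194 and 249 CPM and overlapped. Rpl35a (ENSMUSG00000060636) stood at 54.7, 36.6, 50.4 and 62.7 CPM and overlapped too.

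Rps27a and Fau are made as fusions with ubiquitin and a ubiquitin-like protein that are cut off after translation. Rps27a (ENSMUSG00000020460) stood at 19.3 CPM in Scr 1, 15.8 in Scr 2, 18.2 in KD 1 and 32.8 in KD 2, with KD 2 apart from the other libraries. Its log2 difference was 0.54 ± 0.33 (SE, from 2 libraries in each group). Fau (ENSMUSG00000038274) stood at 7.44, 5.66, 8.38 and 9.22 CPM, with no overlap. Rpl3, Rpl10 and Rpl10a also stood highest in KD 2, with the other libraries closer to each other. Rpl3 (ENSMUSG00000060036), which reaches towards the peptidyl transferase centre, stood at 149, 124, 131 and 249 CPM, and its log2 difference was -0.06 without KD 2 in place of 0.48.

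The paralogues are members or related genes named after a parent gene. Whether each takes its parent's place in the ribosome was not tested, and Rpl7l1 is a member by its symbol alone. Rpl7l1 (ENSMUSG00000063888) stood at 292 CPM in Scr 1, 321 in Scr 2, 380 in KD 1 and 375 in KD 2. Unlike the median member it was not low in Scr 2 or high in KD 2 within its group, and its log2 difference was 0.30 ± 0.13 (SE, from 2 libraries in each group) with an edgeR adjusted p of 0.347. Its parent Rpl7 (ENSMUSG00000043716) stood at 258, 193, 255 and 389 CPM and followed the order of most members. Rps27l (ENSMUSG00000036781), a p53-induced paralogue, stood at 91.1, 75.2, 99.9 and 118 CPM without overlap. Its parent Rps27 (ENSMUSG00000090733) stood at 8.67, 6.73, 6.56 and 9.15 CPM and overlapped. Rpl22l1 (ENSMUSG00000039221), which balances Rpl22 in lymphoid development, stood at 35.6, 24.4, 26.5 and 40.2 CPM and overlapped, as did Rpl22 (ENSMUSG00000028936) at 86.6, 65.2, 81.1 and 103 CPM. The muscle paralogue Rpl3l had 12, 14, 14 and 0 counts, where a count of 0 says only that it was not detected at this depth.

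Many members share most of their sequence with pseudogenes, so reads of this kind may be set aside or counted on either. Of the 50-base stretches of a member's principal transcript, the median share found in no other annotated gene on either strand was 43.9%, and it was under 10% in 6 members and over 90% in 7. Members with under 20% unique stretches (18 genes) had a median level of 33.9 CPM per kilobase, those with 20% to 60% (38 genes) 71.6 and those over 60% (26 genes) 134. Whether the levels of members with little unique sequence were low through counting or in the cells was not tested. Their median log2 differences were 0.29, 0.39 and 0.33 in the same order of classes. Exons of other genes covered part of the principal transcript in 14 members, and over 50% of it in 5, Rps10 and Rpl13a among them. Whether the counting used strand was not stated, and the annotation release behind the counts was not stated either, so these shares are those of GENCODE M21.

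Pseudogenes were linked to a member where they carried its name or repeated at least 10% of its 50-base stretches. There were 511 linked pseudogenes for 73 members, and in 27 members they held more counts than the gene. Rpl3 had 18670 counts over the 4 libraries and Rpl3-ps1 35109. Linked pseudogenes held 89.1% of the joint counts of Rpl5 and its pseudogenes, 88.6% for Rps6, the target of S6 kinase, 92.9% for Rps16 and 94.9% for Rpl24, which stood at 3.91, 2.51, 2.80 and 3.77 CPM by itself. For Rps7 and Fau, whose own counts did not overlap between groups, the share was 90.5% and 93.2%. Rps3, a protein at the entry of the message, and Rpl8, of the large subunit, had 0 counts on linked pseudogenes. Taken alone, the 130 linked pseudogenes that passed the filter had a median log2 difference of 0.36, the same as the members, and median levels of 0.03 in Scr 1, -0.41 in Scr 2, -0.05 in KD 1 and 0.42 in KD 2 (log2 CPM minus each gene's mean). How many of these reads came from the genes themselves was not tested.

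**Figure D4:**
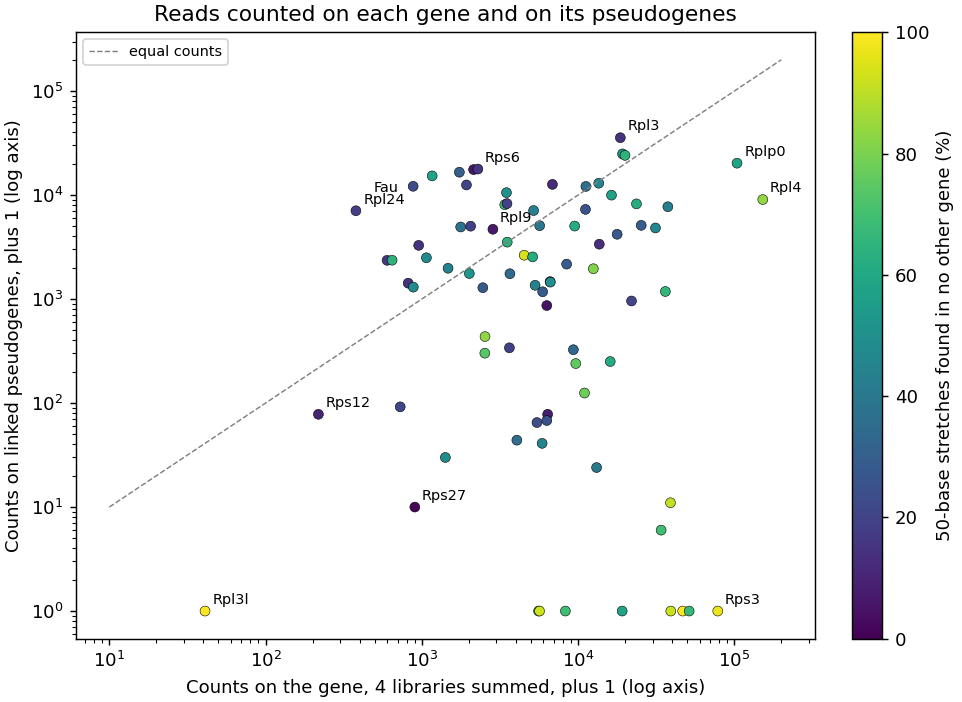
Counts on each ribosomal protein gene against counts on its linked pseudogenes, both summed over the 4 libraries plus 1 on log axes; colour gives the share of 50-base stretches found in no other gene. For 27 genes, Rpl3 with 18670 against 35109 among them, the point lies above the dashed line of equal counts.

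Adding the pseudogene counts to their gene left the subunit medians near their values, while single members changed in value or in overlap. The median log2 difference was 0.34 for the large and 0.39 for the small subunit, 81 of 82 members were above 0, and 21 did not overlap with KD higher, or 25.6%, against 24.6% of all genes. The member that changed sign was Rpl9 (ENSMUSG00000047215). Counted alone, Rpl9 stood at 26.6 CPM in Scr 1, 27.8 in Scr 2, 17.2 in KD 1 and 26.2 in KD 2. It was the only member with both KD libraries below both controls, with a log2 difference of -0.32 ± 0.26 (SE, from 2 libraries in each group) and an edgeR adjusted p of 0.568. Of its 50-base stretches 6.68% were unique, and linked pseudogenes held 62.2% of the joint counts. With them it stood at 69.5, 60.1, 56.1 and 74.9 CPM, its groups overlapped, and the log2 difference was 0.02 ± 0.20. Rpl24 changed from 0.03 to 0.42 and Rpl5 from 0.06 to 0.34 on the log2 scale. With the added counts Rpl5 stood at 160, 144, 171 and 213 CPM, and its groups no longer overlapped. Rps27a changed from 0.54 to 0.62 and lost its overlap too, while Rpl31 and Rps6 came to overlap. Rps7 changed from 0.60 to 0.45 and Rpl12 from 0.30 to 0.44. The members without overlap were thus in part other genes than before. Rps27 and Rps19 stayed at 0.02 and 0.07.

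**Figure D5:**
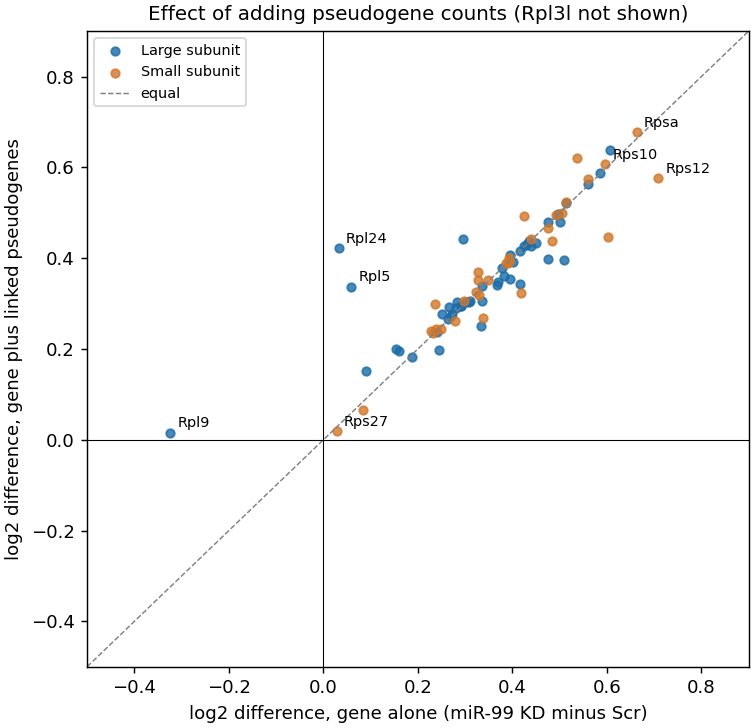
The log2 difference between KD and Scr for each gene alone (horizontal axis) and with the counts of its linked pseudogenes added (vertical axis); the dashed line marks equal values. Most genes lie near the line, and Rpl9 moves from -0.32 to 0.02, Rpl24 from 0.03 to 0.42 and Rpl5 from 0.06 to 0.34.

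Ribosomal proteins outside the symbol rule included Rack1 and Rpl36al, both higher in KD without overlap of the groups. Rack1 (ENSMUSG00000020372), a scaffold on the small subunit, stood at 688 CPM in Scr 1, 651 in Scr 2, 845 in KD 1 and 1017 in KD 2. Its log2 difference was 0.48 ± 0.15 (SE, from 2 libraries in each group), its edgeR adjusted p 0.269 and its DESeq2 adjusted p was 0.0498. Rpl36al (ENSMUSG00000049751) stood at 75.5, 55.2, 80.5 and 99.2 CPM.

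Genes of other steps of translation are given beside the 24.5% of all genes that had KD above Scr without overlap. Of 36 initiation factors, KD exceeded Scr in every pairing of libraries in 21, and in 2 below. At an unadjusted p under 0.05 edgeR counted 5 higher and 0 lower, beside 5.97% and 9.63% of all genes tested. The median log2 difference of the initiation factors was 0.21. Eif2b1, a subunit of the exchange factor that reloads eIF2 with GTP, stood at 142 CPM in Scr 1, 125 in Scr 2, 182 in KD 1 and 223 in KD 2. Of 10 elongation and release factors 9 lay above and 0 below, 3 were counted higher and 0 lower at an unadjusted p under 0.05 by edgeR, and the median was 0.39. Eef1e1, a partner of the aminoacyl-tRNA synthetase complex, stood at 95.6, 89.0, 133 and 160 CPM. DESeq2 called Eef1e1, Eif2b1 and Eif1b higher, at adjusted p of 0.00824, 0.0268 and 0.0435, and 7.09% of its genes in either direction. Over all libraries and with its filter, edgeR called none of the genes in these lists. Without a filter on low counts edgeR called Eef1e1 and Eif2b1, at adjusted p of 0.0276 and 0.0488, among 1064 of 25446 genes. Only the genes with the smallest p in each list were followed in such alternative settings. Without KD 1 the log2 differences of Eef1e1, Eif2b1 and Etf1 were 0.80, 0.74 and 0.68. Without KD 2 they were 0.53, 0.45 and 0.30.

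The lists that follow stand beside 24.5% of all genes tested above and 26% below without overlap. Of the chaperones that carry single ribosomal proteins, 9 of 10 were tested, 6 lay above and 0 below, and the median log2 difference was 0.24. Rpf2, which helps to load the 5S particle, stood at 69.5, 61.7, 83.7 and 91.3 CPM in Scr 1, Scr 2, KD 1 and KD 2. Of 10 regulators of ribosomal protein synthesis 5 lay above and 0 below, with a median of 0.15. Yy1 stood at 26.3, 31.2, 37.7 and 49.3 CPM, and Myc at 556, 551, 704 and 689 CPM, with the libraries of a group close to each other in Myc. Rptor, Rps6kb1 and Rps6kb2, of the mTOR pathway, had log2 differences of -0.19, -0.19 and -0.01 and overlapped. Eif4ebp1 and Eif4ebp2, of the same pathway, had log2 differences of 0.25 and 0.50 and were higher in KD without overlap. Mtor stood at 34.2, 44.4, 34.9 and 43.8 CPM, and Larp1 at 271, 337, 324 and 333 CPM, and both overlapped. The 77 mitochondrial ribosomal protein genes had a median of 0.29, close to that of the cytosolic ones. Of them 59 lay above and 2 below, beside the same 24.5% and 26% of all genes. At an unadjusted p under 0.05 edgeR counted 22 of the 77 higher and 0 lower, beside 5.97% and 9.63% of all genes tested. DESeq2 called 1 higher at an adjusted p of 0.05, where it called 7.09% of its genes in either direction. Their median levels, as log2 CPM minus each gene's mean, were -0.12 in Scr 1, -0.20 in Scr 2, 0.11 in KD 1 and 0.21 in KD 2. In both Scr libraries this median was below 0 and in both KD libraries above it, and the difference from the cytosolic genes was not tested.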

How the data were processed

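For each library the authors deposited unnormalized counts of reads on Ensembl genes, from total RNA amplified with SMARTer per the labels. The tools named in the submitters' processing notes are STAR, HTSeq, Picard and DESeq2, and the build is mm9, with neither versions nor roles. Rows that name no gene, such as HTSeq's classes of uncounted reads (6.22% to 7.28% not aligned, 8.31% to 13.8% outside genes, 1.16% to 1.33% ambiguous), stayed out of library sizes and tests.

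Symbols of 44585 of 45232 rows, transcripts and lengths came from GENCODE M21 (GRCm38). The principal transcript is the one with the best APPRIS tag, then support level, then the shortest. The test was edgeR 4.0.16 (R 4.3.3), quasi-likelihood, filterByExpr, TMM scaling and Benjamini-Hochberg adjustment over all 15320 genes tested at 0.05, without a replicate block. DESeq2 1.42.0 and limma 3.58.1 (voom) were alternatives. Levels on the log2 scale use a prior count of 2. The fits were tested on simulated data whose changes were larger than the members' differences, so differences of the members' size were not tested. The number of mice per group was taken to be the number of libraries, 2, and p-values measure only the spread between these libraries. The members and lists were chosen with earlier results of these data known. Genes named are the members with the smallest p in each subunit and direction, those with the highest or lowest level per kilobase, the stalk, 5S, fusion and paralogue lists, and a few genes of each other list. Rpl31, Rpl24, Rps6, Rps16, Rps3, Rpl8, Rpl10a, Rptor, Rps6kb1, Rps6kb2, Eif4ebp1, Mtor and Larp1 were named after their values were seen. Adding pseudogene counts was an alternative chosen after seeing the data. A few genes that the naming rule covers are not reported here.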

Additional observations from a re-analysis of the deposited data

How the results depend on the processing

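With 2 libraries in each group and few counts for some members, small differences could not be resolved. Why values moved between settings was not tested. The count of members called by edgeR was 0 over all libraries, 1 without a filter on low counts (Rpsa, where 1064 of 25446 genes were called), and 0 to 4 without each library in turn. Members at an unadjusted p under 0.05 numbered 0 over all libraries with edgeR, 6 with DESeq2 (7.32% of all genes higher), 1 with ribosomal protein and mitochondrial genes left out of the scaling (6.78%), 15 without a filter (5.27%), 2 with the length trend removed (8.32%), and 0 to 40 without each library (1.10% to 10.97%). All of these members were higher, except 1 that was lower without KD 2. Knockdown (KD) libraries exceeded Scr without overlap in 24 members, in 12 with library totals alone (14.6%, all genes 18.0%), in 15 of 71 members with at least 10 CPM in 2 libraries (21.1%, all genes 26.7%), and in 25 to 79 without each library (all genes 30.7% to 39.7%). Without KD 2 the members' share was 30.5%, under the 37.8% of all genes. The large subunit median was 0.12 to 0.55 and the small subunit median 0.13 to 0.60 without each library, and their difference ran from -0.12 to 0.0099.

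Members with a log2 difference above 0 numbered 80 over all libraries, 69 without Scr 2 and 66 without KD 2. Among the genes chosen by the naming rule, those that turned sign had the following ranges when each library was left out in turn. They ran for Rpl10 from -0.11 to 0.74, for Rpl22l1 from -0.18 to 0.42, for Rpl3 from -0.057 to 0.86 and for Rpl32 from -0.035 to 0.58. They ran for Rpl3l from -6.65 to 0.34, for Rpl5 from -0.093 to 0.20, for Rps19 from -0.10 to 0.25 and for Rps27 from -0.23 to 0.25. The sign turned without Scr 2, without KD 2 or without either. The value of -6.65 for Rpl3l is set against KD 2 with 0 counts, so it depends on the prior count. With library totals alone Rpl5 was at -0.028, Rps19 at -0.0037 and Rps27 at -0.059. Rps27 was at -0.0039 with upper quartile scaling and at -0.12 with the length trend removed, and Rpl9 was at 0.015 with pseudogene counts added.

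Over all genes, deviations from the group means correlated at 0.057 between libraries of the same number. With only 2 pairs and no label that ties them, the numbers do not define pairs. Totals at the end of some deposited files carry other replicate numbers than the labels used here, so the numbering is uncertain. A fit with a replicate block called 0 members by edgeR, counted 0 at an unadjusted p under 0.05, and gave medians of 0.33 for the large and 0.39 for the small subunit, -0.06 apart, with 24 members above.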
